A study of Homo sapiens with 6 samples.

Results

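The genes described here encode the subunits of the transcription factor AP-1 (JUN, JUNB, JUND, FOS, FOSB, FOSL1, FOSL2 and ATF3) together with EGR1 and IER3, which belong to the same early response to growth factors and stress. They were chosen by name, with earlier results of these data known. They are 10 of the 16922 genes in the deposited table, and all 10 passed the filter on low values. RNA of the clear cell renal carcinoma line 786-O (genotype labelled parental) was compared with RNA of its derivative labelled 786-OFOXD1null, in which the forkhead transcription factor gene FOXD1 is the inactivated gene, with 3 libraries of each. Both lines grew in RPMI-1640 with serum to 70% confluency, no treatment is labelled, and libraries, which the labels describe by an mRNA kit and the study's methods as total RNA libraries, were read in pairs of 150 bp. Whether the null line is a clone, and how its allele was made, was not given in the sources used here. Extracts are called biological triplicates without saying that they came from separate cultures, so p-values measure only the spread between these libraries.

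AP-1 is a dimer of basic leucine zipper proteins. JUN proteins pair with themselves or with FOS proteins, whereas FOS proteins need a JUN partner. The dimer binds an element that was searched for here as TGANTCA, where N is any base. FOS, FOSB, EGR1 and ATF3 are switched on within minutes of a stimulus from silent or weakly active promoters and their RNA decays fast, whereas FOSL1, FOSL2 and JUND RNA is more stable. EGR1 is a zinc finger factor induced by the same MAP kinases through serum response factor, and IER3 is a small protein that is induced by NF-kB and growth factors and modulates ERK signalling and cell survival. In carcinoma lines, FOSL1 and JUN are known for genes of invasion and matrix turnover.

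Several facts about the libraries bear on the results. FOXD1 RNA was higher in the libraries labelled FOXD1null, at 1277, 1048 and 901 normalized counts against 432, 498 and 480.2 in 786-O (log2 fold change 1.18, adjusted p = 0.000385, limma), so directions are given by label, and the 3 libraries labelled FOXD1null are called the null line. FOXD1 overlaps FOXD1-AS1 on the other strand, which was not analysed here. A normalized count is a gene's read count divided by the size factor of its library. Total reads in genes were 30982463 to 37843830 per library. Of 11 kidney carcinoma markers, 10 were measured here, of which 4 were higher (PAX8, VIM, VCAM1 and ANGPTL4), 2 lower (LHX1 and PAX2) and 4 did not pass. PAX8, a renal lineage factor, lay between 6518 and 8076 in all 6 libraries. RNA of other cell types was out of place in 786-O replicate 2 and, at a lower level, in 786-O replicate 3 and FOXD1null replicate 1. The 5 of 10 cardiomyocyte markers measured summed to 2.23, 4685 and 58.9 in 786-O against 412, 3.03 and 2.91 in the null line, and the myosin gene MYH6 was at 0 in 786-O replicate 1 and FOXD1null replicate 2. The 8 of 10 gut and pancreas carcinoma markers measured summed to 63.6 to 1739 in 786-O and 163 to 321 in the other group, with CEACAM5 at 0 in 786-O replicate 1 and in FOXD1null replicates 2 and 3. Of the 5 of 10 hepatocyte markers measured, 4 peaked in 786-O replicate 2, while SERPINA1 was abundant in all 6. The 1 of 8 immune markers measured, CD68, lay between 21.2 and 31.7 in all libraries. The 4 of 7 fibroblast markers measured summed to 749.7 to 898 in 786-O and 284 to 437 in the null line, with COL1A1, PDGFRB and LUM lower (LUM at 0 in FOXD1null replicates 2 and 3) and COL3A1 highest in 786-O replicate 2, and their part in the results was not tested. No endothelial marker of 5 was analysed here. The 10 genes are therefore also given without 786-O replicate 2 and FOXD1null replicate 1 where this changed a call. In a bulk sample, less RNA per cell and fewer cells with that RNA cannot be told apart.

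Of the 10 genes, JUN, JUNB, FOSL1 and IER3 were higher in the libraries labelled FOXD1null, FOSL2 was lower, and JUND, FOS, FOSB, ATF3 and EGR1 did not pass the test. Genes passed when the adjusted p of limma on log2(normalized count + 1) was at or under 0.05, which held for 33.4% of all 16901 genes tested, 16.3% as higher and 17.1% as lower. The 4 higher and 1 lower members were also those whose libraries did not overlap between the groups, which held for 49.0% of all genes tested, 24.1% as higher and 24.9% as lower. The median log2 fold change of the 10 was 0.22, beside -0.01 over all genes tested. Without 786-O replicate 2, 5 members were higher and 1 lower, as ATF3 joined, where 23.8% of all genes passed. Without FOXD1null replicate 1, 4 were higher and 3 lower, as FOS and FOSB joined, where 55.0% of all genes passed. Without both libraries, 6 were higher and 3 lower, as EGR1 also joined, again beside 55.0% of all genes. That fit had 2 libraries per group and kept 786-O replicate 3, where RNA of other cell types was also out of place. FOSB had 97.5 normalized counts in that library and 18.97 in 786-O replicate 1. The fit was thus not cleared of such RNA. 786-O replicate 2 and FOXD1null replicate 1 were left out because they stood apart, which narrows the spread that the test measures. The smaller adjusted p-values of that fit are therefore no stronger evidence than those of all 6 libraries.

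**Figure D1:**
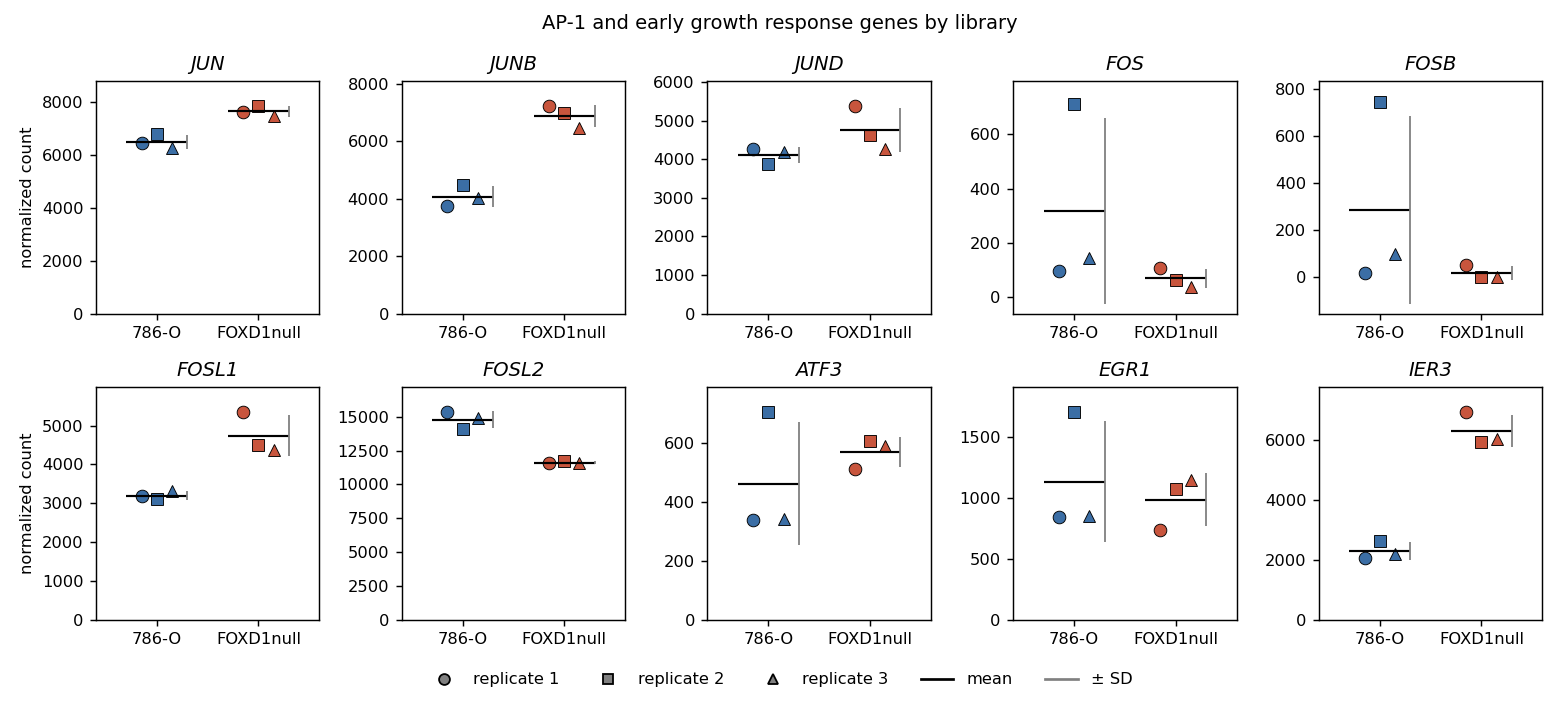
Normalized count (linear axis) of each of the 10 genes in the 3 libraries of 786-O (blue) and the 3 labelled FOXD1null (red), with the replicate shown by the marker shape, the group mean as a black line and the SD as a grey bar. The groups separate for JUN, JUNB, FOSL1, FOSL2 and IER3, while 786-O replicate 2 stands above its group for FOS, FOSB, ATF3 and EGR1, reaching 746 for FOSB.

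Among the JUN family genes, JUNB RNA changed most. JUNB, a partner of FOS proteins that is generally a weaker activator than JUN, had 3735, 4479 and 4008 normalized counts in 786-O against 7228, 6971 and 6464 in the null line. Every value of the null line lay above every value of 786-O, and the means were 4074 ± 376 and 6888 ± 389 (SD, n = 3 libraries per group). Limma gave a log2 fold change of 0.76 (SE, its standard error, 0.08, adjusted p = 0.00038), and its adjusted p stayed at or under 0.00408 in every alternative run. JUNB lies on the plus strand of chromosome 19 of hg38, from 12791486 to 12793315, and shares part of this span with HOOK2 on the other strand. HOOK2 was 1122 ± 26.4 and 1376 ± 16.1 (SD, n = 3 libraries per group), and since whether counting used strand was not given in the sources used here, reads from the overlap cannot be told apart.

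JUN, the founding member and the strongest transactivator of its family, moved less. It had 6435, 6778 and 6266 normalized counts in 786-O against 7617, 7846 and 7452 in the null line. The groups did not overlap, with means of 6493 ± 261 and 7638 ± 197 (SD, n = 3 libraries per group) and a log2 difference of 0.23 (SE 0.06, adjusted p = 0.0188, limma). This call was close to the threshold. It was lost when libraries were scaled to equal totals (0.14, adjusted p = 0.101), and also without 786-O replicate 1 (adjusted p = 0.0826), without 786-O replicate 3 (0.106) or without FOXD1null replicate 2 (0.0775). JUN lies on the minus strand of chromosome 1, from 58776845 to 58784048.

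JUND, the member with steady RNA in most cells, had 4262, 3869 and 4186 normalized counts in 786-O against 5383, 4620.0 and 4260.3 in the null line. The groups overlapped, since 786-O replicate 1 lay above FOXD1null replicate 3. Limma gave 0.21 on the log2 scale (SE 0.09, adjusted p = 0.128), and 0.07 (adjusted p = 0.185) without both 786-O replicate 2 and FOXD1null replicate 1. JUND lies on the minus strand of chromosome 19, from 18279694 to 18281622, and overlaps no annotated gene.

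Sequences around the start sites are shown for members whose RNA passed the test or stood apart and whose window held an element searched. AP-1, serum response factor and forkhead factors are known to bind elements of these kinds. Binding at the matches shown was not tested. RefSeq windows of 250 bases before to 50 after the annotated start (GRCh38.p14) were found for 8 of the 10 members, and no window was matched for FOSL1 and IER3. Both strands were searched for the AP-1 element TGANTCA, the cAMP response element TGACGTCA, its JUN promoter variant TGACATCA, the forkhead core GTAAACA and the CArG box bound by serum response factor. None of the matches overlapped another. The share of all 35116 windows with a match was 7.71% for the AP-1 element, with N as any base. It was 1.85% for the cAMP response element, 2.61% for the variant, 3.42% for the forkhead core and 1.29% for the CArG box. Any of these elements was found for 6 of the 8 members, a count without a like share over all windows. The variant is named after the JUN promoter, so its match in JUN was known beforehand. A match describes letters only. The first 280 bases of the JUN window (chr1:58784018-58784297, minus strand) and the JUNB window (chr19:12791236-12791515, plus strand) are given 5′ to 3′ with the match in capitals, which is TGACATCA from -67 to -60 in JUN and TGTTTAC, the forkhead core read on the other strand, from -166 to -160 in JUNB.
JUN: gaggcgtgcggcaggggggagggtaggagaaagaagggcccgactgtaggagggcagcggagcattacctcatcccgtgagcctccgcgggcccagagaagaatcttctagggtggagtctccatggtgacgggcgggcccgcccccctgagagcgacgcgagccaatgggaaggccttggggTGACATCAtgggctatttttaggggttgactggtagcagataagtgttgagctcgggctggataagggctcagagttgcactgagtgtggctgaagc
JUNB: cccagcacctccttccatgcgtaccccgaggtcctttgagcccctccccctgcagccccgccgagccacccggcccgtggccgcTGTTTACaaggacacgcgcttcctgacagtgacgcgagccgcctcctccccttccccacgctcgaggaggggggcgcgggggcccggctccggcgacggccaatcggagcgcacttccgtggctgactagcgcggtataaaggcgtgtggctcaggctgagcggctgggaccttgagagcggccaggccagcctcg
The base at 1 is the annotated start and -1 the base before it. The JUND window held TGACGTCA from -200 to -193.

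Of the FOS family genes, the 2 with abundant RNA moved in opposite directions. FOSL1 (FRA-1), known for roles in invasion of carcinoma cells, had 3174, 3097 and 3325 normalized counts in 786-O against 5345, 4504 and 4366 in the null line. All libraries of the null line lay above those of 786-O, with FOXD1null replicate 1 the highest, and the means were 3198 ± 116 and 4738 ± 530.0 (SD, n = 3 libraries per group). Limma gave a log2 fold change of 0.56 (SE 0.09, adjusted p = 0.00186) and 0.45 without both 786-O replicate 2 and FOXD1null replicate 1. FOSL1 lies on the minus strand of chromosome 11, from 65892049 to 65900573.

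FOSL2 (FRA-2), its close relative, had 15347, 14090.1 and 14893 normalized counts in 786-O against 11566, 11746 and 11554 in the null line. All null libraries lay below all 786-O libraries and within a narrow range of each other. The means were 14777 ± 637 and 11622 ± 108 (SD, n = 3 libraries per group), for a log2 difference of -0.35 (SE 0.06, adjusted p = 0.00321, limma). FOSL2 lies on the plus strand of chromosome 2, from 28392448 to 28417317, and overlaps FOSL2-AS1 on the other strand, at 24.1 and 22.8 mean normalized counts, and an unnamed noncoding gene on its own strand. The FOSL2 window (chr2:28392608-28392887, plus strand) lies wholly inside the FOSL2 span above, so its annotated start is downstream of the first base of that span. Counted from that start, the window held the AP-1 element itself, TGACTCA, from 5 to 11, in capitals here.
FOSL2: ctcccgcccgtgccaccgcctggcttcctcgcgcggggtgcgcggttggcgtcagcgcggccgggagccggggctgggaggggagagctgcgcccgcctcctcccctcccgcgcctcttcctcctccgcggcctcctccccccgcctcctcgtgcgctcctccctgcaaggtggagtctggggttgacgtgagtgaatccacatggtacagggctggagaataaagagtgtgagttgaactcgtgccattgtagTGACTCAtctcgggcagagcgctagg

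FOS, the classic immediate early partner of JUN, was low and uneven. It stood at 97.1, 709.9 and 146 normalized counts in 786-O against 109, 64.7 and 39.8 in the null line. A single library, 786-O replicate 2, stood far above the other 5, and the groups overlapped because FOXD1null replicate 1 lay above 786-O replicate 1. The means were 318 ± 340.5 and 71.1 ± 35.0 (SD, n = 3 libraries per group), and the log2 difference of -1.71 (SE 0.68) did not pass (adjusted p = 0.0898, limma). It was -0.85 (adjusted p = 0.181) without 786-O replicate 2, -2.07 (adjusted p = 0.00336) without FOXD1null replicate 1 and -1.22 (adjusted p = 2.43e-05) without both. FOS lies on the plus strand of chromosome 14, from 75278826 to 75282230. Its window held no match, and the same was so for FOSB. Bases more than 250 before the start were not searched, so elements further upstream are not covered.

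FOSB, an early response gene with a strongly stimulus-bound promoter, showed the widest spread of the 10. It had 18.97, 746 and 97.5 normalized counts in 786-O, from 17, 823 and 106 reads. In the libraries labelled FOXD1null it had 53.9, 3.03 and 2.91, from 50, 3 and 3 reads. FOXD1null replicates 2 and 3 were thus the lowest of all 6 libraries, and replicate 1 of that line lay above 786-O replicate 1. The log2 difference of -3.58 (SE 1.39) did not pass (adjusted p = 0.0826, limma), was -2.22 (adjusted p = 0.249) without 786-O replicate 2, and was -4.83 (adjusted p = 0.042) without 786-O replicate 1. It was -4.84 (adjusted p = 0.000266) without FOXD1null replicate 1 and -3.48 (adjusted p = 9.4e-07) without both 786-O replicate 2 and FOXD1null replicate 1. Differences on the log2(normalized count + 1) scale understate the change of so low a gene. FOSB lies on the plus strand of chromosome 19, from 45467995 to 45475179, and overlaps ERCC1 on the other strand, which had 1221 ± 87.4 and 1134 ± 96.0 (SD, n = 3 libraries per group).

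ATF3, a stress-induced basic leucine zipper factor that can pair with JUN proteins, had 340.4, 705 and 342 normalized counts in 786-O against 513, 607 and 591 in the null line. The highest of all was 786-O replicate 2, and the other 786-O libraries were the lowest. With all 6 libraries the log2 fold change was 0.39 (SE 0.26, adjusted p = 0.292, limma). Without 786-O replicate 2 it was 0.74 and passed (adjusted p = 0.00547, limma). Without FOXD1null replicate 1 as well, with 2 libraries left per group, it was 0.81 (adjusted p = 6.88e-10, limma). ATF3 lies on the plus strand of chromosome 1, from 212565334 to 212620777. Of its pair of windows, that of the upstream start held TGACATCA from -123 to -116 (chr1:212565157-212565436, plus strand), in capitals here.
ATF3: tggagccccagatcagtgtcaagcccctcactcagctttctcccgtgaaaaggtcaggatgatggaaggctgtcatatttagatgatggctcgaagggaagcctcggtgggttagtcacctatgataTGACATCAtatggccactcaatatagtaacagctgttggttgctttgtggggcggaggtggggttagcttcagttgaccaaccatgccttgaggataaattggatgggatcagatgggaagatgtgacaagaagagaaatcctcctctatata

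EGR1, the zinc finger early response factor, had 848, 1706 and 849 normalized counts in 786-O against 741, 1072 and 1149.8 in the null line. FOXD1null replicate 1 was the lowest of the 6 and 786-O replicate 2 the highest. With all libraries the log2 difference was -0.14 (SE 0.28, adjusted p = 0.737, limma). Its sign turned to 0.19 (adjusted p = 0.507) without 786-O replicate 2, to 0.05 (adjusted p = 0.849) without FOXD1null replicate 1 and to 0.39 (adjusted p = 3.55e-06) without both, so its direction rests on which libraries are used. EGR1 lies on the plus strand of chromosome 5, from 138465479 to 138469303. Its window (chr5:138465229-138465508, plus strand) held CArG boxes from -105 to -96 and from -83 to -74, in capitals here.
EGR1: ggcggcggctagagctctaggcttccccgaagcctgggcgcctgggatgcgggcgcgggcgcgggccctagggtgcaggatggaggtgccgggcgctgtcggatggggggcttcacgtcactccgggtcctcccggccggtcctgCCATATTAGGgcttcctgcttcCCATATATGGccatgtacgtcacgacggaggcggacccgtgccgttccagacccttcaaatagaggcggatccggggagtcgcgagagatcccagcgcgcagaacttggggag

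IER3 rose most of the 10. It had 2062, 2629 and 2177 normalized counts in 786-O against 6924, 5939.7 and 6015 in the null line. The lowest null library was above the highest 786-O library, and the means were 2289.6 ± 299.6 and 6293 ± 548 (SD, n = 3 libraries per group). Limma gave a log2 fold change of 1.46 (SE 0.10, adjusted p = 6.53e-05), within 1.37 and 1.57 in every alternative run. IER3 lies on the minus strand of chromosome 6, from 30743199 to 30744548, and overlaps the noncoding genes IER3-AS1 and HCG20 on the other strand, which were not analysed here.

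**Figure D2:**
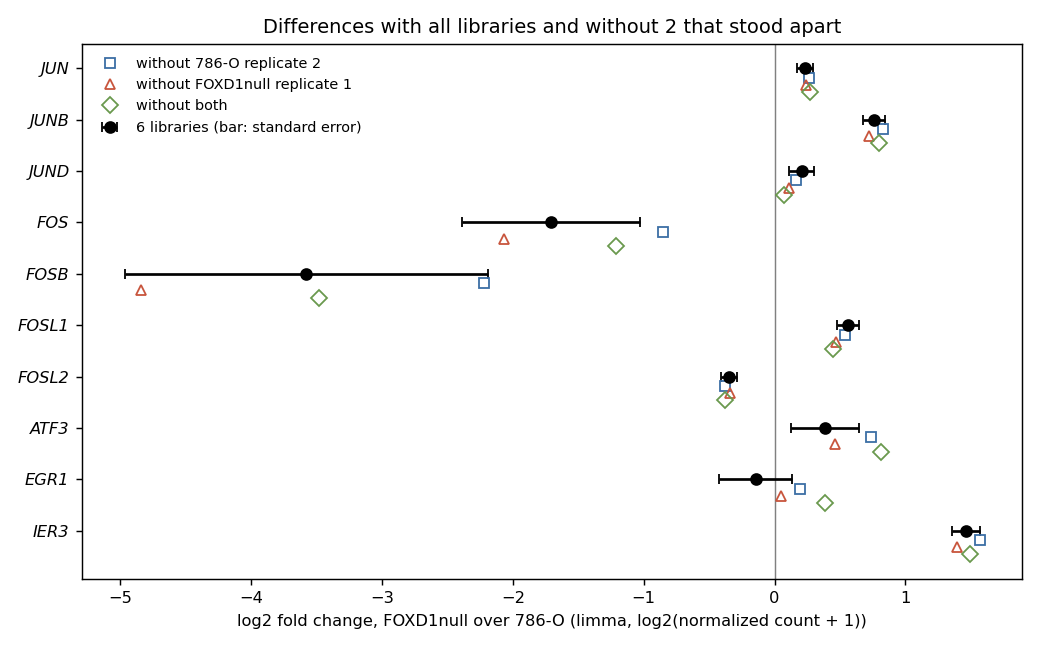
Log2 fold change of each gene, libraries labelled FOXD1null over 786-O, from limma on log2(normalized count + 1), with all 6 libraries (black, bars are the standard error), without 786-O replicate 2 (square), without FOXD1null replicate 1 (triangle) and without both (diamond). JUN, JUNB, FOSL1, FOSL2 and IER3 stay in place, while FOS, FOSB and ATF3 shift and EGR1 crosses 0, from -0.14 to 0.39 without both.

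Levels of different genes were compared per kb of exon (union of the GENCODE exons), which gives the makeup of each family. The JUN family summed to 6026, 6323 and 6089 normalized counts per kb in 786-O against 8842, 8369 and 7797 in the null line, a log2 difference of 0.44. The groups did not overlap (two-sided exact permutation test, p = 0.1, which is the lowest value possible with 3 libraries in each group). Within the family the proportions also differed. The JUNB share of the JUN family was 36.2% in 786-O and 45.2% in the null line, a difference of 8.98 percentage points, while JUN went from 29.1% to 25.3% and JUND from 34.7% to 29.5% (p = 0.1 for each, exact permutation test). With the length of the MANE Select transcript the JUND difference was -4.89 points and its groups overlapped (exact permutation test, p = 0.2).

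The FOS family differed more in its makeup than in its sum. It came to 3859, 3966 and 3905 normalized counts per kb in 786-O against 4491, 4048 and 3940.0 in the null line, with overlapping groups, a log2 difference of 0.09 (exact permutation test, two-sided, p = 0.2) and of -0.00425 when libraries were scaled to equal totals. FOSL1 made up 43.6%, 41.4% and 45.1% of it in 786-O and 63.1%, 59.0% and 58.7% in the null line. FOSL2 made up 55.5%, 49.6% and 53.3%, and 35.95%, 40.5% and 40.9%. In 786-O FOSL2 was thus the larger share in every library, and in the null line FOSL1 was. The differences were 16.9 percentage points for FOSL1 and -13.7 for FOSL2, without overlap (p = 0.1 for each, exact permutation test). FOS and FOSB together were a small part except in 786-O replicate 2, where FOS held 5.62% and FOSB 3.39%. With the length of the MANE Select transcript in place of the union of exons, the differences were 17.3 and -13.0 points.

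**Figure D3:**
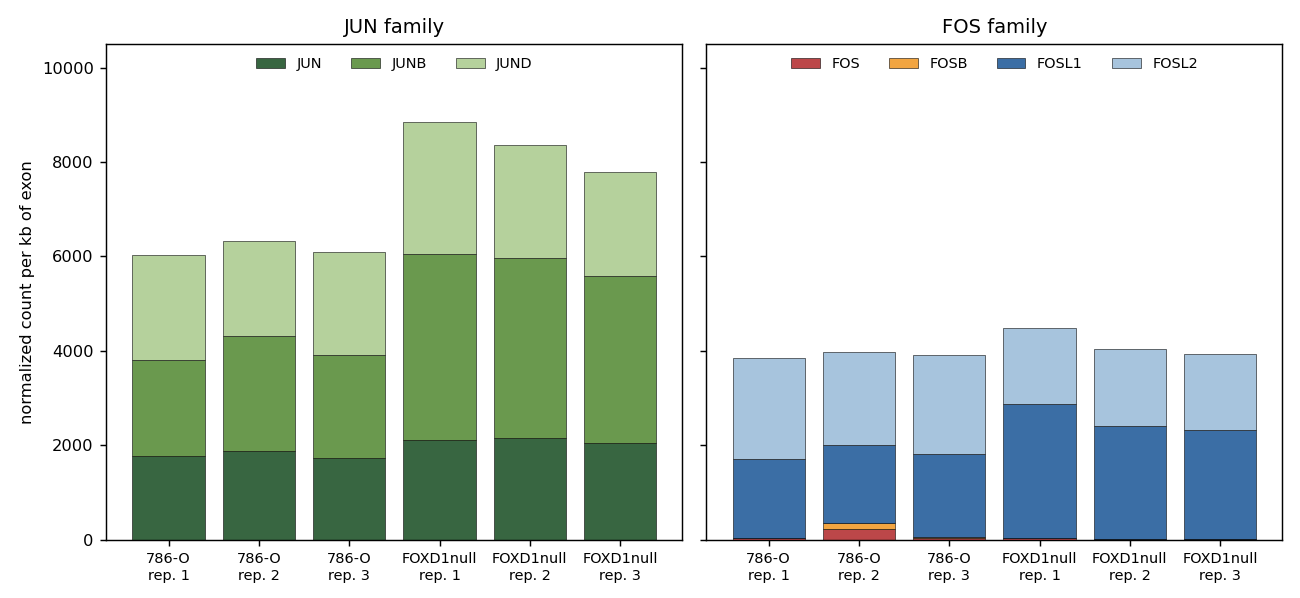
Normalized count per kb of exon in each of the 6 libraries (linear axis from 0), stacked by gene for the JUN family (left) and the FOS family (right). The JUN stack is higher in all 3 libraries labelled FOXD1null, at 7797 or more against at most 6323, mainly by its JUNB segment, whereas the FOS stack keeps a similar height with a larger FOSL1 and a smaller FOSL2 segment.

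Ranked per kb in 786-O, JUNB led with 2226 normalized counts per kb, followed by JUND with 2128 and FOSL2 with 2063, whose ranges over libraries overlapped from neighbour to neighbour. JUN followed at 1792, IER3 at 1696.0 and FOSL1 at 1695, again with overlapping ranges. EGR1 at 362 stood apart from its neighbours in that order. The ranges of ATF3 at 116, FOS at 99.7 and FOSB at 51.8 overlapped from neighbour to neighbour. Within each 786-O library FOS lay above FOSB, and ATF3 lay above FOS in replicates 1 and 3 but not in replicate 2. In the libraries labelled FOXD1null the order was IER3 at 4662, JUNB at 3764, FOSL1 at 2511, JUND at 2465, JUN at 2108, FOSL2 at 1623, EGR1 at 315, ATF3 at 143, FOS at 22.3 and FOSB at 3.59 normalized counts per kb. There the ranges of neighbours overlapped for FOSL1 and JUND alone. By this length IER3 rose from the fifth place to the first, and FOSL2 went from the third to the sixth. With the length of the MANE Select transcript, FOSL2 at 2201 lay above JUND in 786-O, and FOSL1 at 1879 above IER3 at 1851. In the null line the ranges of JUND and JUN then overlapped as well. The places thus depend on the length used.

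The uneven members share a library. Relative to the mean of 786-O replicates 1 and 3, 786-O replicate 2 was higher by 4.07 for FOSB, 2.56 for FOS, 1.05 for ATF3 and 1.01 for EGR1 on the log2(normalized count + 1) scale. An excess over 1 was found for these 4 of the 10 members and for 1.51% of all genes tested, and FOSB ranked 40 and FOS 76 among 16901 genes. IER3 had an excess of 0.31, JUNB 0.21 and JUN 0.09, and FOSL1, FOSL2 and JUND were slightly lower, at -0.07, -0.10 and -0.13. Replicate 2 was the highest 786-O library for 7 of the 10 members, as it was for 32.2% of all genes tested. These values describe 1 library and carry no test. The early response RNA of that library was known when the members were chosen, so the share over all genes is a description only.

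**Figure D4:**
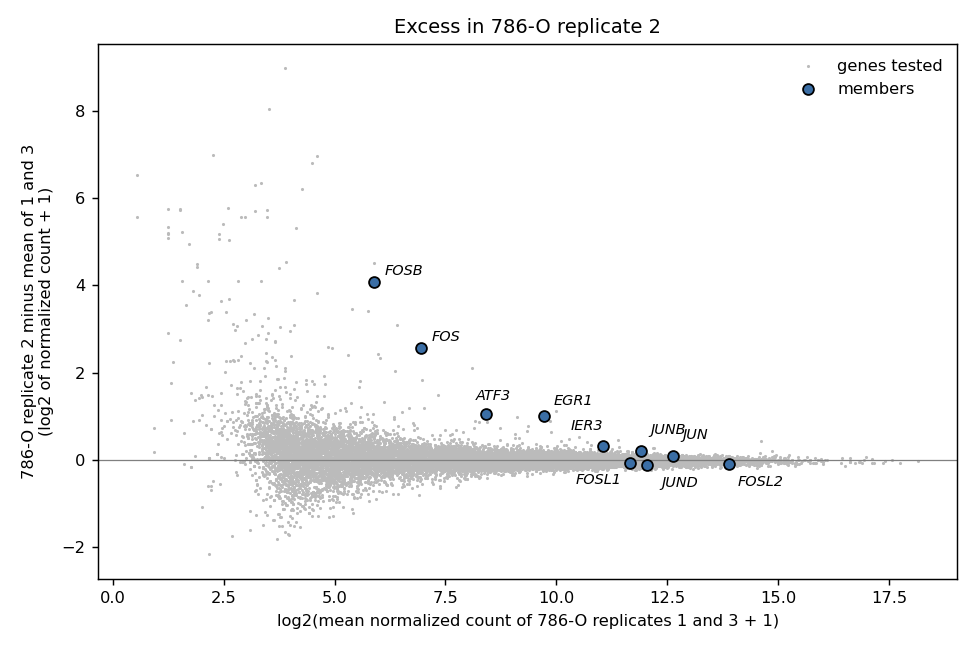
Log2(normalized count + 1) of 786-O replicate 2 minus the mean of replicates 1 and 3, for all 16901 genes tested (grey) and the 10 members (blue), against the log2 level in replicates 1 and 3. FOSB at 4.07, FOS at 2.56, ATF3 at 1.05 and EGR1 at 1.01 lie above the band of genes of like level, and the other 6 members lie between -0.13 and 0.31.

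Other early response genes stood out in the same library. The nuclear receptors NR4A3, NR4A2 and NR4A1 had an excess of 4.40, 2.43 and 1.84, the kinase SIK1 2.87 and the antiproliferative gene BTG2 1.14, which makes 5 of the 37 listed early response genes tested. Marker RNA of other tissues moved with them. As a percent of its level in 786-O replicate 2, FOSB reached 13.1% in 786-O replicate 3 and 7.22% in FOXD1null replicate 1. MYH6 reached 1.02% and 8.77%, CEACAM5 5.37% and 8.77%, and the fibrinogen gene FGG 9.60% and 8.35% in those same libraries. FOS differed from this in keeping 13.7% in 786-O replicate 1, where MYH6 and CEACAM5 had 0 reads. EGR1 and ATF3 kept 43.4% to 86.1% of the level of 786-O replicate 2 in the other 5 libraries. The part of such RNA in the values of FOS, FOSB, ATF3 and EGR1 was not tested.

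**Figure D5:**
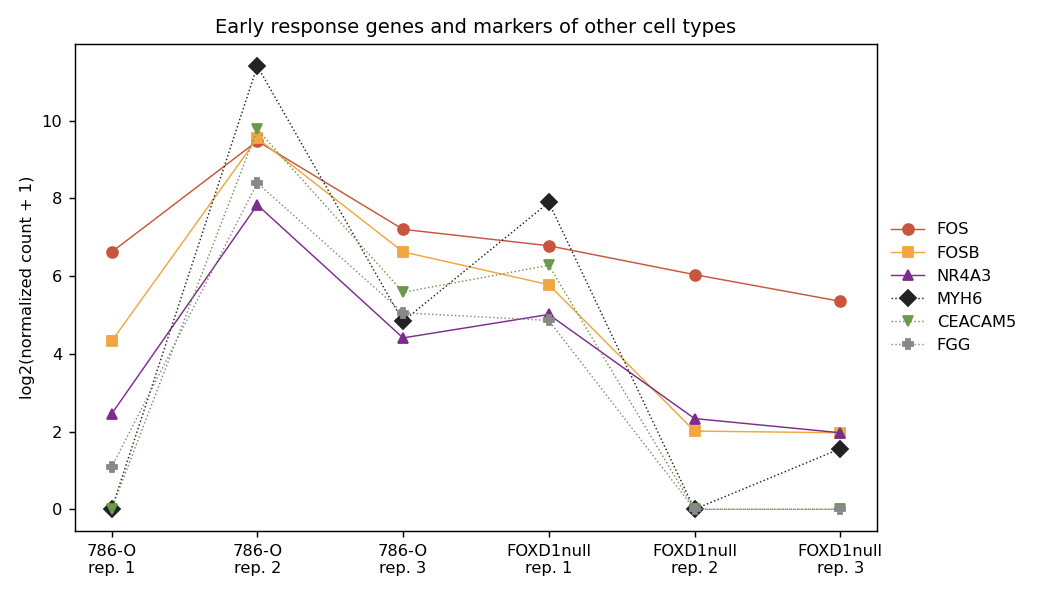
Log2(normalized count + 1) in the 6 libraries for FOS, FOSB and NR4A3 (solid) and for the cardiomyocyte marker MYH6, the carcinoma marker CEACAM5 and the hepatocyte marker FGG (dotted). Lines join the points of a gene and imply no order of replicates. All 6 genes peak in 786-O replicate 2, and FOS alone stays well above 0 in every library, with its lowest normalized count at 39.8.

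The other genes of the pathway were followed in 5 lists, all chosen with earlier results of these data known. Of 12 other basic leucine zipper partners of AP-1 listed, 9 were tested, of which 4 were higher and 5 did not pass, and their median was 0.23 on the log2 scale, in a fit that called 16.3% of all genes tested higher and 17.1% lower. The small MAF protein MAFF went from 195, 340.0 and 231 normalized counts to 508, 535 and 513 (log2 fold change 1.06, adjusted p = 0.00322, limma). MAF, a large MAF activator, was higher by 0.89, CREB5, a partner of JUN at cAMP response elements, by 0.53 and the small MAF protein MAFG by 0.23 on the log2 scale. The calls of CREB5 and MAFG were lost without any of the libraries other than FOXD1null replicate 1, and scaled to equal totals 2 partners were higher. ATF2, another partner of JUN, at -0.03, and MAFK, at 0.06, did not pass.

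Of the factors and kinases that act upstream of these promoters, 29 were tested. Among them 4 were higher and 4 lower, beside 16.3% and 17.1% of all genes tested, 21 did not pass, and the median was 0.12 on the log2 scale. MAP2K6, a kinase that activates p38, fell from 195, 210.3 and 219.9 normalized counts to 86.2, 53.6 and 57.3 (log2 fold change -1.68, adjusted p = 0.000416, limma), and MAPK10 (JNK3) fell by 0.76. RPS6KA5 (MSK1), a kinase of CREB and histone H3, was higher by 0.74 and the p38 kinase MAPK12 by 0.58. The S6 kinase RPS6KA3, at 0.18, did not pass, but was 0.35 (adjusted p = 8.14e-07, limma) without FOXD1null replicate 1. No call was made for serum response factor, SRF, at 0.03, with 2418 to 2760.5 normalized counts over all 6 libraries. The number higher was 12 without FOXD1null replicate 1, in a fit that called 55.0% of all genes.

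The other early response genes went both ways. Among 37 tested of 40 listed, 13 were higher and 10 lower, 14 did not pass, and the median was 0.18, beside 16.3% of all genes tested called higher and 17.1% lower. GADD45A, a gene of growth arrest after DNA damage, went from 1870.4, 2156 and 2069 normalized counts to 5441, 5079 and 5151 (log2 fold change 1.36, adjusted p = 2.5e-05, limma), and the zinc finger factor KLF6 was higher by 1.33. The GTPase gene RHOB was lower, at -1.29, and so was BTG2, at -1.23, the latter with 304.7, 781 and 409 normalized counts in 786-O against 207, 198 and 184 in the null line. ZFP36L1, at 0.03, and KLF10, at 0.19, did not pass with all libraries, and passed at 0.12 (adjusted p = 0.00466, limma) and 0.21 (adjusted p = 0.00176) without FOXD1null replicate 1. The number higher was 20 without that library and 21 without 786-O replicate 2 as well, where 55.0% of all genes passed in each fit.

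Most of the listed AP-1 target genes passed the test. Among 21 tested of 23 listed, 13 were higher and 4 lower, 4 did not pass, and the median was 0.74 on the log2 scale. Over all genes tested, 16.3% were called higher and 17.1% lower, and the median was -0.01. Since the list was chosen with earlier results of these data known, this contrast is a description and no test of AP-1 activity. CXCL8 (interleukin 8) went from 290.2, 626 and 406 normalized counts to 4154, 3216 and 3302 (log2 fold change 3.07, adjusted p = 9.9e-05, limma). IL6 was higher by 1.87, along with the urokinase gene PLAU, at 1.57, and its receptor PLAUR, at 1.29. The collagenase genes MMP1, at -2.11, and MMP13, at -1.43, were lower, as were IL11, at -1.45, and SPP1 (osteopontin), at -1.12. EZR, the ezrin gene, at 0.04, and the connexin gene GJA1, at 0.11, did not pass, although GJA1 did without FOXD1null replicate 1, at 0.14 (adjusted p = 0.036, limma). PLAU, PLAUR, MMP13, IL11 and SPP1 were chosen after their values were seen.

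Genes known to be driven by EGR1 in other systems were also mixed. Among 9 tested of 10 listed, 4 were higher and 2 lower, 3 did not pass, and the median was 0.39, beside 16.3% of all genes tested called higher and 17.1% lower. EGR1 itself did not pass. F3 (tissue factor) was higher by 1.97 and the adhesion molecule ICAM1 by 1.94 on the log2 scale, with 2869, 3217 and 3181 normalized counts of ICAM1 in 786-O against 9938, 13245 and 12572 in the null line. MMP14, a membrane-bound metalloproteinase, was higher by 0.60 and FGF2 was lower, at -0.91. PDGFA, at 0.18, did not pass.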

How the data were processed

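Normalized counts of 16922 genes in 6 libraries, 3 per line, were analysed. Per the labels and methods, the authors used Trimmomatic 0.36 for trimming, STAR 2.5.2b for alignment to hg38, featureCounts (Subread) for counting per gene and DESeq2 for normalization and testing. The deposited normalized counts are a signal in which the authors divided each count by a size factor. The deposited log2 fold changes, their p-value and adjusted p-value columns, the group means and other values (the difference of the means) are the authors' own comparison and were not used. Their annotation release, and whether counting used strand, were not given in the sources used here.

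All values were whole multiples of 1 read within 0.001 (100% in each library), which gave reads and size factors of 0.896 to 1.103. Symbols came from GENCODE release 44 (16747 genes). Log2(normalized count + 1) was fitted with limma 3.58.1 in R 4.3.3 (trended prior, no covariates) as the main test. It covered the 16901 genes whose mean was at least 10 and left out 21, with Benjamini-Hochberg adjustment and a threshold of 0.05. Family levels per kb were compared by exact permutation tests. Alternatives were equal library totals, TMM factors, DESeq2 1.42.0 and edgeR 4.0.16 on the recovered reads, pseudocounts of 0.5 and 8, no filter or a mean of at least 50, a replicate block, and leaving out libraries, as well as, chosen after seeing the data, the MANE Select length. Scripts were tested on simulated data. The members and lists were chosen with earlier results of these data known. Named from each list were up to 4 passing genes of mean at least 100 with the largest fold change and no overlap, and the 2 most abundant that did not pass, apart from some genes that are not reported here. Figures used matplotlib 3.10.9.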

Additional observations from a re-analysis of the deposited data

How the results depend on the processing

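JUNB, FOSL1, FOSL2 and IER3 kept their direction and passed in every alternative run, and DESeq2 and edgeR on the recovered reads gave the same calls as limma for all 10 members, with 5848 and 5675 genes passing in all. Scaling to equal totals shifted the median of all genes by -0.09 on the log2 scale, gave JUN 0.14 (adjusted p = 0.101, limma), the JUN family sum 0.35 and the FOS family sum -0.00425, and left 2 basic leucine zipper partners higher. Without both 786-O replicate 2 and FOXD1null replicate 1, 9295 genes passed, 3 members were lower, 21 other early response genes and 12 upstream genes were higher, and FOS was -1.22, FOSB -3.48, ATF3 0.81 and EGR1 0.39, the reverse of its sign with all libraries. There the FOSL1 share differed by 14.5 points and the JUND share by -7.68.

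Leaving out each library in turn gave 3621 (without 786-O replicate 1) to 9302 (without FOXD1null replicate 1) genes passing, 1 to 3 members lower, 12 to 20 other early response genes higher, 2 to 5 basic leucine zipper partners higher, 3 to 12 upstream genes higher and 1 to 2 EGR1 targets lower. The log2 fold change ranged from 0.21 to 0.27 for JUN, -2.28 to -0.85 for FOS, -4.84 to -2.22 for FOSB, 0.21 to 0.74 for ATF3 and -0.31 to 0.19 for EGR1. The cause of these shifts was not tested.

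Deviations from the group means correlated across genes at -0.25, -0.23 and 0.01 for libraries of the same replicate number. The highest value was 0.26, for 786-O replicate 2 with FOXD1null replicate 1, which both held out-of-place RNA. With 3 libraries per group, these values cannot decide whether the numbers pair the libraries. With a replicate block, 4880 genes passed, JUN was 0.23 (adjusted p = 0.0555, limma) and 1 EGR1 target was lower. Depth limits FOSB, which rested on 3 reads in FOXD1null replicates 2 and 3. With 3 libraries per group, the exact permutation tests of the family values cannot go below 0.1.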

Other observations

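Genes whose levels over the 6 libraries were most like those of FOS and of FOSL1 are given as a description, by Pearson's r of log2(normalized count + 1) among the 11803 genes with a mean of at least 100, with no p since the libraries share line and depth. For FOS they were AKR1C1 (r = 0.98), ZNF410 (0.98), AKR1B10 (0.98), NT5DC1 (0.98) and ODR4 (0.97). AKR1C1 and AKR1B10, which encode aldo-keto reductases, shared the peak in 786-O replicate 2. AKR1C1 had 36.8, 459.6 and 45.1 normalized counts in 786-O against 60.4, 24.3 and 14.6 in the null line. AKR1B10 had 239.9, 1168 and 304 against 199, 136 and 143. ZNF410, NT5DC1 and ODR4 moved little in size, with NT5DC1 between 888 and 1008 in all libraries.

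For FOSL1 they were MCM7, a subunit of the replicative helicase, SEC13, of the COPII coat and the nuclear pore, the mitochondrial channel gene VDAC1, PRR7 and PAQR7, each with r = 0.999 or above. MCM7 had 14539, 14355 and 14914 normalized counts in 786-O against 19972, 18053 and 17594 in the null line, and as for FOSL1 its highest value was in FOXD1null replicate 1.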
